A study of Homo sapiens with 27 samples.

Results

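The 9 genes described here cover the handling of prostaglandins from release of the precursor to the receptor: the phospholipases PLA2G4A and PLA2G4F, the cyclooxygenases PTGS1 and PTGS2, the terminal synthase PTGES, the transporter SLCO2A1, the inactivating enzyme HPGD, and the receptors PTGER2 and PTGER4. They were chosen by gene symbol with earlier results of these data known, and they are 9 of 36536 genes in the deposited table. Each had 1 row, and all 9 passed the filter on low counts, as did 15575 genes in all. Because the choice was made with the responses in view, the values below are a description, and the number of genes that moved is not evidence about prostaglandin genes as a class.

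The cells were MCF10A, an established human mammary epithelial line that does not form tumours. Every group, controls included, was grown in medium holding 20 ng/ml epidermal growth factor (EGF), horse serum, hydrocortisone, cholera toxin and insulin, and was then held for 18 h in medium free of growth factors. The ligands were EGF again, the interleukin-6 family cytokine oncostatin M (OSM) and transforming growth factor beta (TGFB). They were given at 10 ng/ml as single ligands, as the pairs EGF+OSM, EGF+TGFB and OSM+TGFB, or as EGF+OSM+TGFB, and RNA was taken after 24 h. Controls were cells given phosphate-buffered saline (PBS) for 24 h and cells harvested at 0 h (T0), which makes 9 groups of 3 libraries. All libraries come from a single cell line, and the labels do not say whether the 3 libraries of a group were separate cultures, so the tests measure only the spread between these samples, which may be technical.

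Prostaglandins are lipid signals made from arachidonic acid, which cytosolic phospholipases free from membrane lipids. Cyclooxygenases turn it into an unstable intermediate, and terminal synthases turn that into the separate prostaglandins, among them prostaglandin E2. The signal ends when a transporter carries prostaglandin into the cell and a dehydrogenase oxidises it, and its EP2 and EP4 receptors raise cyclic AMP. In mammary epithelium PTGS2 is known as the inducible cyclooxygenase. Only RNA was measured here, not prostaglandins or protein.

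The 4 stretches below are the 250 bases before the transcription start of genes with contrasting patterns: PTGS2, which was higher in every treated group than in PBS; HPGD and PLA2G4F, which were lower in every treated group; and PTGER4, which was highest where EGF was present without OSM. They are RefSeq sequences on GRCh38.p14, written from 5′ to 3′ on the gene's strand, and 8 of the 9 genes matched an entry in the table. Capitals mark matches to the motifs named after them.
PTGS2: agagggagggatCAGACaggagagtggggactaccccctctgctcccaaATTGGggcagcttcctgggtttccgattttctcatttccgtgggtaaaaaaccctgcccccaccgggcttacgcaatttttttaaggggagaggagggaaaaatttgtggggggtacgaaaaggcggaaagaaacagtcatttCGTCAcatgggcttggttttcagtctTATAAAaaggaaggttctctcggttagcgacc
HPGD: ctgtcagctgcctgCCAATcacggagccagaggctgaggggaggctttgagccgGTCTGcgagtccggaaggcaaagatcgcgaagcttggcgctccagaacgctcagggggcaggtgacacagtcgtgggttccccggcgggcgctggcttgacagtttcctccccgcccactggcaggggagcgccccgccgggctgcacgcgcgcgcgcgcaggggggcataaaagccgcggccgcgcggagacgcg
PTGER4: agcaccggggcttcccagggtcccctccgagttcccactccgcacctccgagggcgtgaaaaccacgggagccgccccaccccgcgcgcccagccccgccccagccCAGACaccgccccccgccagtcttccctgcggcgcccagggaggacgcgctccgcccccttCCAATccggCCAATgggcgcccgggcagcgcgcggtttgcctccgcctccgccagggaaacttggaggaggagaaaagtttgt
PLA2G4F: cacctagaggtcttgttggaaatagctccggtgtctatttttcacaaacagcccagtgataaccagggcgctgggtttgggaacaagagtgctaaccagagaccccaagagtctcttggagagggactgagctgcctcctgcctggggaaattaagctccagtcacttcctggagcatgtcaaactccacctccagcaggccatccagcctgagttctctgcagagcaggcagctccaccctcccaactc

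These stretches lie at chr1:186680424-186680673 on the minus strand, chr4:174522489-174522738 on the minus strand, chr5:40679665-40679914 on the plus strand and chr15:42156637-42156886 on the minus strand. Motifs were searched on both strands in the 300 bases from 250 before to 50 after the start, in the 8 matched genes and in 35116 promoters of the table. PTGS2 held a TATA box (TATAAA) at -32, counted from the start, a motif found in 11.5% of all promoters, and TGACG, the core of the cyclic AMP response element, at -58 and +25, found in 24.6%. It also held CAGAC, the short SMAD site found in 45.3% of promoters, at -238, and CCAAT, found in 34.6%, at -201 and at -2, where it runs past the start and is not capitalised. HPGD held CCAAT at -236, CAGAC at -196 and, beyond the printed stretch, the E-box CACGTG at +41, which 7.26% of promoters hold. PTGER4 held CAGAC at -144 and CCAAT at -83 and -74. The PLA2G4F window held none of the motifs searched, which says only that these letters are not in this window. The full cyclic AMP response element TGACGTCA, which contains TGACG (1.85% of promoters), the AP-1 site TGANTCA (7.71%), the STAT site TTCNNNGAA (7.66%), the SMAD palindrome GTCTAGAC (0.202%) and the C/EBP site TTGCGCAA (0.151%) were found in none of the 8 windows.

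The median library held 39.5 M (mega) counts, the smallest 30.1 M and the largest 52.9 M, and the log2 levels of replicates correlated at 0.995 to 0.998 across genes. DUSP6, a feedback phosphatase of the ERK pathway, averaged 5.40 counts per 1 M counts (CPM) in PBS and 95.9 with EGF, but also 66.6 with OSM and 62.5 with OSM+TGFB, so it does not mark EGF alone. SOCS3, a feedback inhibitor of cytokine signalling, averaged 80.3 to 165 CPM in the 4 groups with OSM and at most 6.35 CPM in the others. The keratins KRT5, KRT14 and KRT17 and the basal factor TP63 were abundant in every group (TP63 group means of 86.4 to 195 CPM). Of markers of other cell types, PTPRC, CD3E and CDH5 stayed at or below a group mean of 0.133 CPM. The 3 endothelial markers (PECAM1, VWF, CDH5) summed to between 0.263 CPM with EGF+TGFB and 4.59 CPM with PBS, and the 5 luminal markers (KRT8, KRT18, EPCAM, ESR1, GATA3) to between 391 CPM with OSM and 1120 CPM with all 3 ligands. The 4 fibroblast markers (COL1A1, COL1A2, PDGFRA, DCN) summed to between 12.7 CPM with EGF+OSM and 213 CPM with TGFB, with COL1A2 and PDGFRA at or below 0.322 CPM. The 4 leukocyte markers summed to between 34.9 and 113 CPM, carried by CD68 and CSF1R. These sums moved with the groups, and their part in the results was not tested.

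Against PBS, a call here means an adjusted p under 0.05 from edgeR's quasi-likelihood fit over all genes. With that rule 7 of the 9 genes were called with EGF, where 73.5% of all genes tested were, 6 with OSM (63.4% of all genes) and 8 with TGFB (35.6%). The combinations called 9 genes with EGF+OSM (77.2% of all genes), 7 with EGF+TGFB (73.7%), 8 with OSM+TGFB (66.0%) and 9 with EGF+OSM+TGFB (74.4%). The choice of genes used these comparisons, so nothing is read from the counts. The 7 comparisons use the same PBS libraries and so are not independent of each other. No direction was shared by all 9: PTGS2 and PTGER4 were called higher in 7 of 7 comparisons, PTGES, HPGD and PLA2G4F were called lower in 7 of 7, and PTGS1 was lower in 5 of 7 and higher in none. SLCO2A1, PTGER2 and PLA2G4A went both ways. Since bulk RNA was measured, fewer cells expressing a gene and less RNA per cell cannot be told apart.

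The same fit compared cells given a ligand on top of others with cells given the others alone. The group means compared do not include the PBS libraries, which still enter the scaling and the estimate of the spread. OSM added to EGF changed 8 of the 9 genes (34.9% of all genes called), OSM added to TGFB 8 (56.6%) and OSM added to EGF+TGFB 6 (26.4%). TGFB changed 8 when added to EGF (54.6%), 7 when added to OSM (51.6%) and 8 when added to EGF+OSM (61.1%). EGF changed 8 in each case: added to OSM (61.7%), to TGFB (69.4%) and to OSM+TGFB (52.2%). PTGS2 was higher and PTGES and HPGD lower in 9 of 9 of these comparisons, PLA2G4F was lower in 8, and SLCO2A1 was higher in 8 and lower in none.

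**Figure D1:**
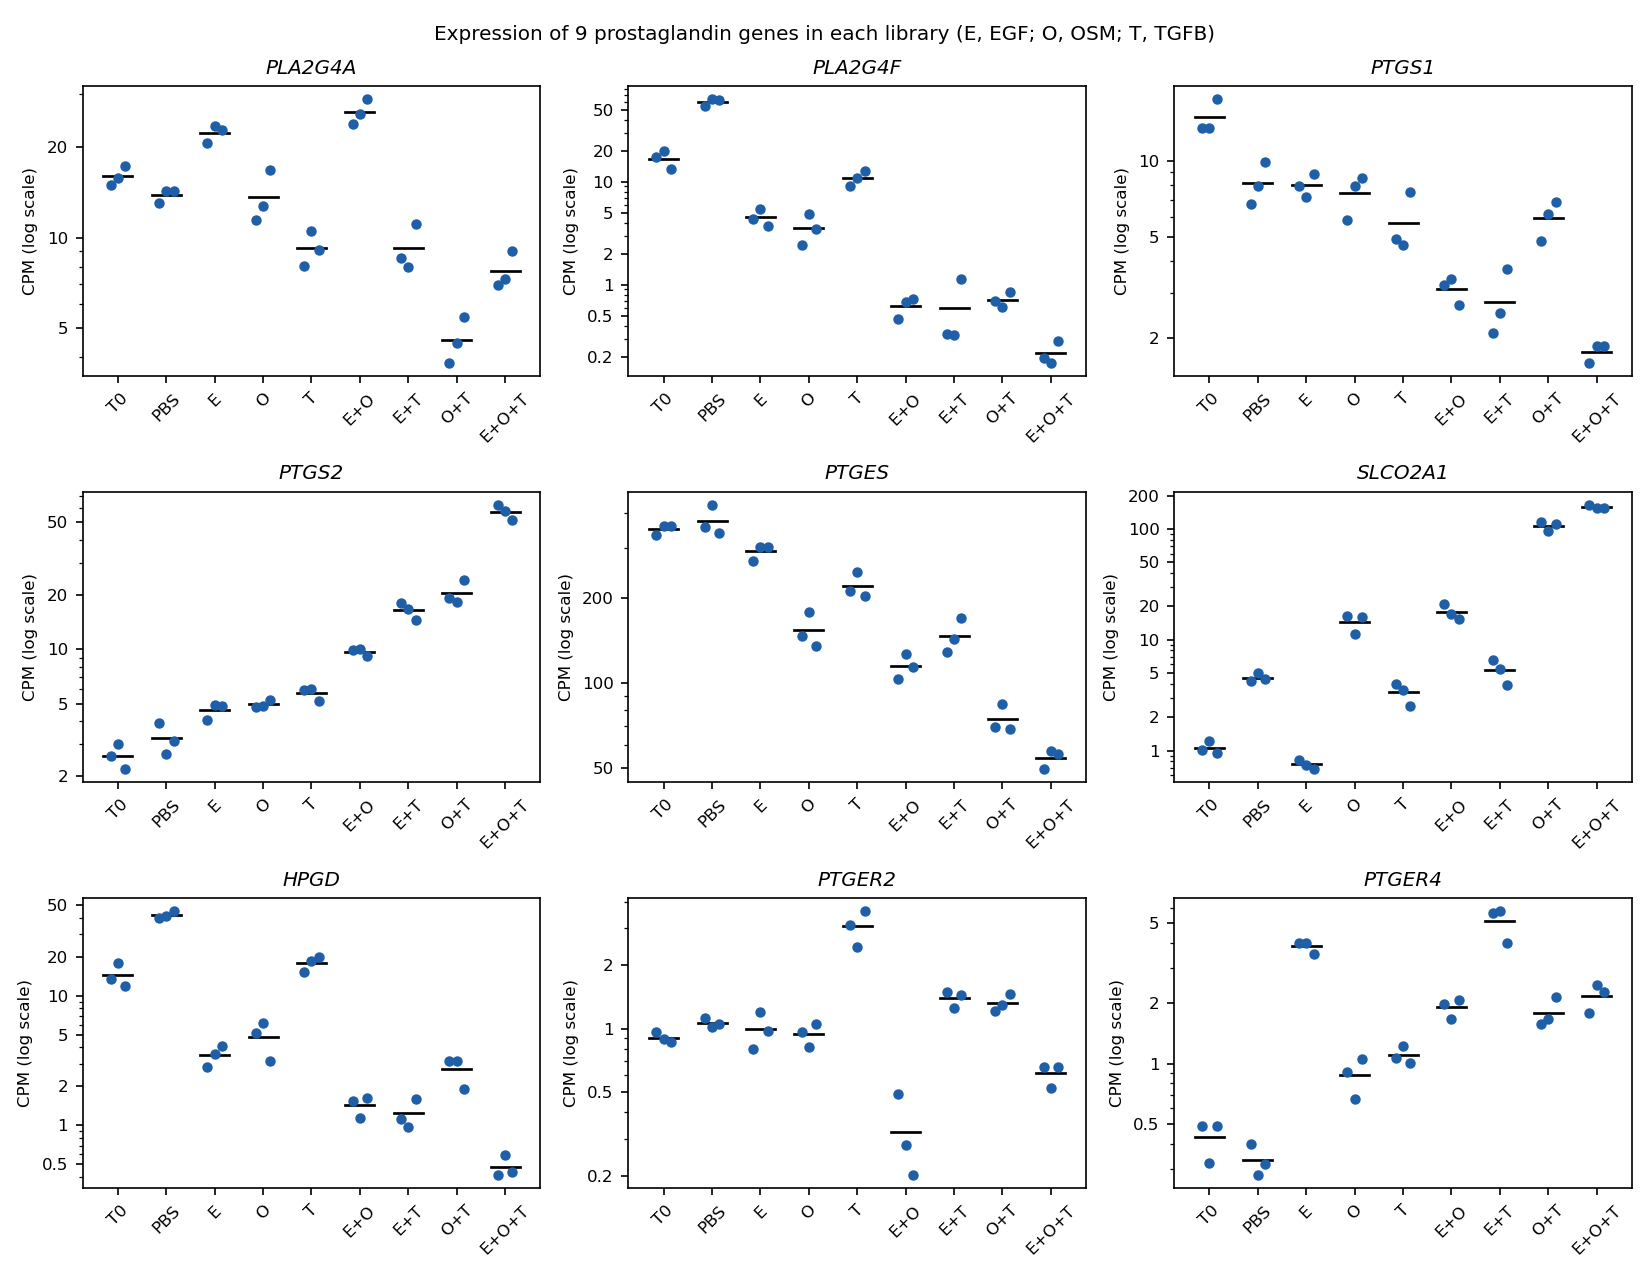
Level of each of the 9 genes in each library, in CPM on a log scale (its own for each gene), by group (E, EGF; O, OSM; T, TGFB). Each point is a library and each bar the mean of 3; PTGS2 climbs from 3.23 CPM in PBS to 57.1 CPM with all 3 ligands, while HPGD falls from 41.9 to 0.482 CPM.

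**Figure D2:**
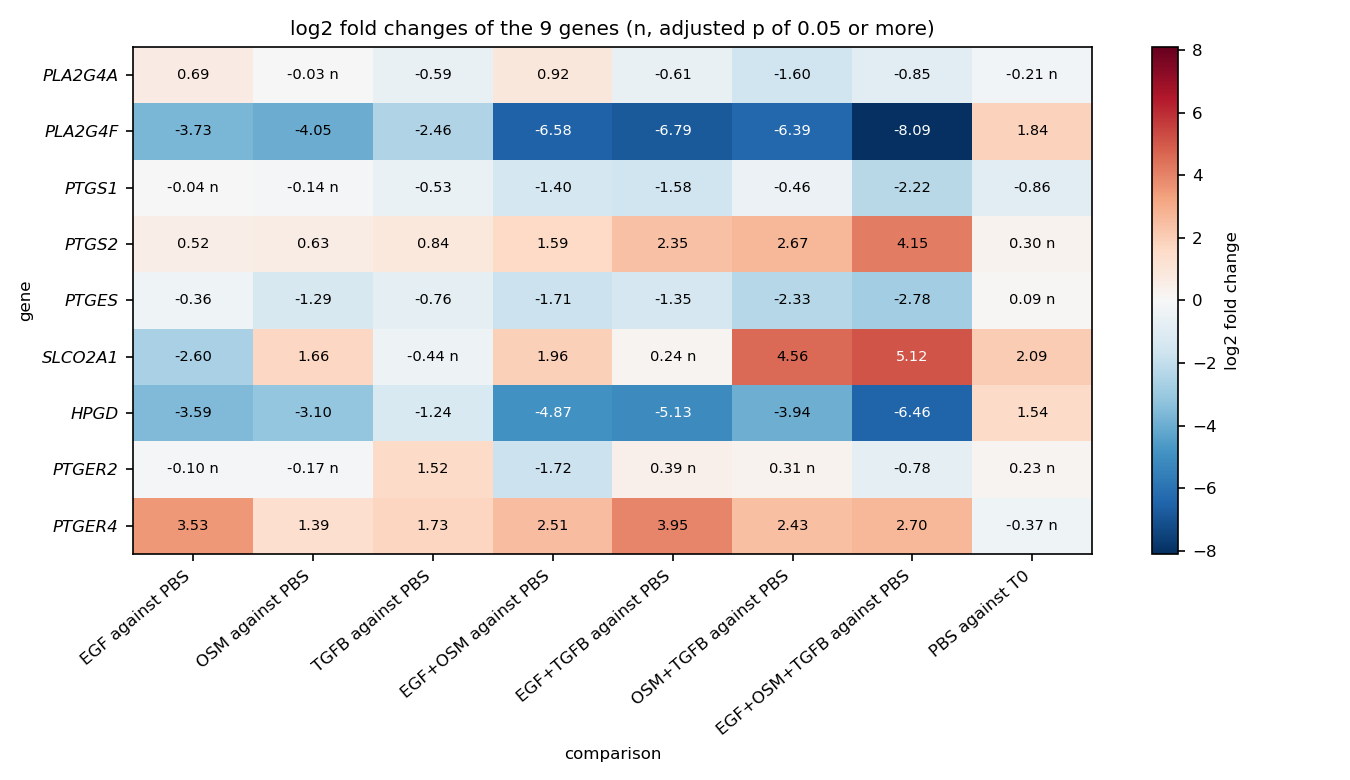
Fitted log2 fold changes of the 9 genes for each treatment against PBS and for PBS against T0, with the value printed in each cell and n marking an adjusted p of 0.05 or more. Red is higher and blue is lower in the first group; PLA2G4F reached -8.09 and SLCO2A1 5.12 with all 3 ligands.

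Per kilobase of transcript, the scale on which genes can be compared, PTGES was the most abundant of the 9 in PBS, at 213 ± 26.3 CPM per kb (SD, n = 3). HPGD followed at 16.01 ± 1.05, PLA2G4F at 10.8 ± 0.807 and PLA2G4A at 4.82 ± 0.247 CPM per kb. PTGS1, SLCO2A1 and PTGS2 lay at 1.63 ± 0.309, 1.12 ± 0.0953 and 0.716 ± 0.143 CPM per kb. The receptors were lowest, PTGER2 at 0.433 ± 0.0232 and PTGER4 at 0.0970 ± 0.0179 CPM per kb. With all 3 ligands the order was another: SLCO2A1 led at 38.9 ± 1.25 CPM per kb, ahead of PTGES at 31.0 ± 2.37 and PTGS2 at 12.7 ± 1.17. PLA2G4F was then the lowest of the 9, at 0.0389 ± 0.0102 CPM per kb, and HPGD was at 0.184 ± 0.0366.

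PLA2G4A, the cytosolic phospholipase that frees arachidonic acid in response to calcium, was higher with EGF and lower wherever TGFB was present. The gene lies on chromosome 1 (186828949 to 186988981, plus strand, 18 exons, GENCODE release 44 on GRCh38). Its 3 PBS libraries held 13.1, 14.3 and 14.3 CPM, and the EGF libraries 20.7, 23.5 and 22.8 CPM, all above PBS. EGF+OSM was the highest group, at 23.9, 25.8 and 28.9 CPM, and OSM+TGFB the lowest, at 3.82, 4.45 and 5.43 CPM. Both groups lay clear of the PBS libraries, on opposite sides. The log2 fold changes against PBS were 0.69 ± 0.13 (SE) with EGF, 0.92 ± 0.13 with EGF+OSM, -0.59 ± 0.14 with TGFB, -0.61 ± 0.14 with EGF+TGFB, -1.60 ± 0.15 with OSM+TGFB and -0.85 ± 0.14 with all 3 ligands. OSM alone, at 11.5, 12.7 and 16.7 CPM, overlapped PBS and was not called (log2 fold change -0.03 ± 0.14, adjusted p = 0.883 by edgeR). EGF thus raised PLA2G4A from PBS and, on the log2 scale, by 0.94 ± 0.13 from OSM and by 0.76 ± 0.16 from OSM+TGFB. Added to TGFB alone, EGF gave -0.02 ± 0.14 (adjusted p = 0.928 by edgeR).

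PLA2G4F, a second member of the cytosolic phospholipase family, had the widest fall from PBS of the 9 genes. T0 averaged 16.8 CPM, below PBS and above every treated group. The gene is on chromosome 15 (42139034 to 42156636, minus strand, 20 exons). PBS libraries held 54.9, 63.4 and 61.9 CPM. With TGFB they held 9.11, 10.97 and 12.7 CPM, with EGF 4.38, 5.45 and 3.68 CPM, and with OSM 2.45, 4.81 and 3.51 CPM. No treated library reached the lowest PBS library, and TGFB left the most transcript. The single-ligand log2 fold changes were -2.46 ± 0.20 with TGFB, -3.73 ± 0.21 with EGF and -4.05 ± 0.22 with OSM. The libraries of the pairs held between 0.324 and 1.13 CPM, and those with all 3 ligands 0.196, 0.174 and 0.282 CPM, 5 to 9 counts a library, a log2 fold change of -8.09 ± 0.55. At such counts the size of the fall is imprecise. In EGF+TGFB 1 library stood apart, with 1.13 CPM against 0.330 and 0.324 in the others. The fall with TGFB added to EGF+OSM (-1.52 ± 0.62) was no longer called with no filter on low counts (adjusted p = 0.059 by edgeR) or without replicate 2 or 3 of EGF+OSM or replicate 1 or 2 of EGF+OSM+TGFB, nor that with EGF added to OSM+TGFB (-1.71 ± 0.62) without OSM+TGFB replicate 3 or EGF+OSM+TGFB replicate 1.

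PTGS1, the cyclooxygenase usually described as constitutive, was lowest where EGF was combined with another ligand. PTGS1 is on chromosome 9 (122370530 to 122395703, plus strand, 11 exons). PBS libraries held 6.75, 7.94 and 9.82 CPM, EGF libraries 7.94, 7.16 and 8.83 CPM, and OSM libraries 5.81, 7.92 and 8.53 CPM. The 3 groups overlapped, and neither ligand alone was called (log2 fold changes -0.04 ± 0.19 and -0.14 ± 0.19, adjusted p = 0.872 and 0.556 by edgeR). Together EGF and OSM left 3.22, 3.40 and 2.68 CPM, all below PBS, a log2 fold change of -1.40 ± 0.21. EGF+TGFB held 2.09, 2.49 and 3.74 CPM (-1.58 ± 0.21), and all 3 ligands 1.59, 1.85 and 1.85 CPM (-2.22 ± 0.23), the lowest group. TGFB alone (-0.53 ± 0.20, adjusted p = 0.0384 by edgeR) and OSM+TGFB (-0.46 ± 0.20, adjusted p = 0.0426 by edgeR) were called lower, but their libraries overlapped those of PBS. The TGFB call was lost without PBS replicate 2 or 3 or TGFB replicate 1 or 2, and the OSM+TGFB call without PBS replicate 2 or 3 or OSM+TGFB replicate 1 or 2. Without PBS replicate 3 these 2 log2 fold changes were -0.38 and -0.31. With no filter on low counts neither was called (adjusted p = 0.0546 and 0.0592 by edgeR), nor was OSM+TGFB with rows as deposited (adjusted p = 0.0515 by edgeR).

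PTGS2, the inducible cyclooxygenase, rose with each ligand and rose further with each ligand added. It lies on chromosome 1 (186671791 to 186680922, minus strand, 10 exons). Its PBS libraries held 3.93, 2.65 and 3.10 CPM. EGF libraries held 4.05, 4.91 and 4.88 CPM, OSM libraries 4.81, 4.86 and 5.26 CPM, and TGFB libraries 5.98, 6.03 and 5.21 CPM. All single-ligand libraries lay above all PBS libraries, by little in EGF replicate 1. The pairs were higher again and did not overlap each other: 9.91, 10.1 and 9.15 CPM with EGF+OSM, 18.0, 16.7 and 14.4 CPM with EGF+TGFB, and 19.2, 18.2 and 24.0 CPM with OSM+TGFB. With all 3 ligands the libraries held 62.1, 57.5 and 51.6 CPM, each more than any other library of the series. Log2 fold changes against PBS were 0.52 ± 0.14, 0.63 ± 0.14 and 0.84 ± 0.14 for EGF, OSM and TGFB, then 1.59 ± 0.14, 2.35 ± 0.13 and 2.67 ± 0.13 for the pairs in the order above, and 4.15 ± 0.13, or 17.8-fold, for all 3. PTGS2 was called higher in 9 of 9 additions of a ligand. The largest of these steps was TGFB added to EGF+OSM, at 2.56 ± 0.12, and the smallest EGF added to OSM, at 0.96 ± 0.13.

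The balance of the cyclooxygenases per length of transcript therefore turned over. In PBS the ratio of PTGS2 to PTGS1, each in CPM per kb, was 0.647, 0.372 and 0.352 in the 3 libraries, so that PTGS1 was the more abundant in each. With TGFB the ratio averaged 1.19 ± 0.365 (SD, n = 3), with 1 library below 1. With EGF+OSM it was 3.51 ± 0.264, with OSM+TGFB 3.88 ± 0.574 and with EGF+TGFB 7.10 ± 2.66. All 3 ligands gave ratios of 43.5, 34.7 and 31.0, all above every other library. T0 was at the other end, at 0.201 ± 0.0553.

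**Figure D3:**
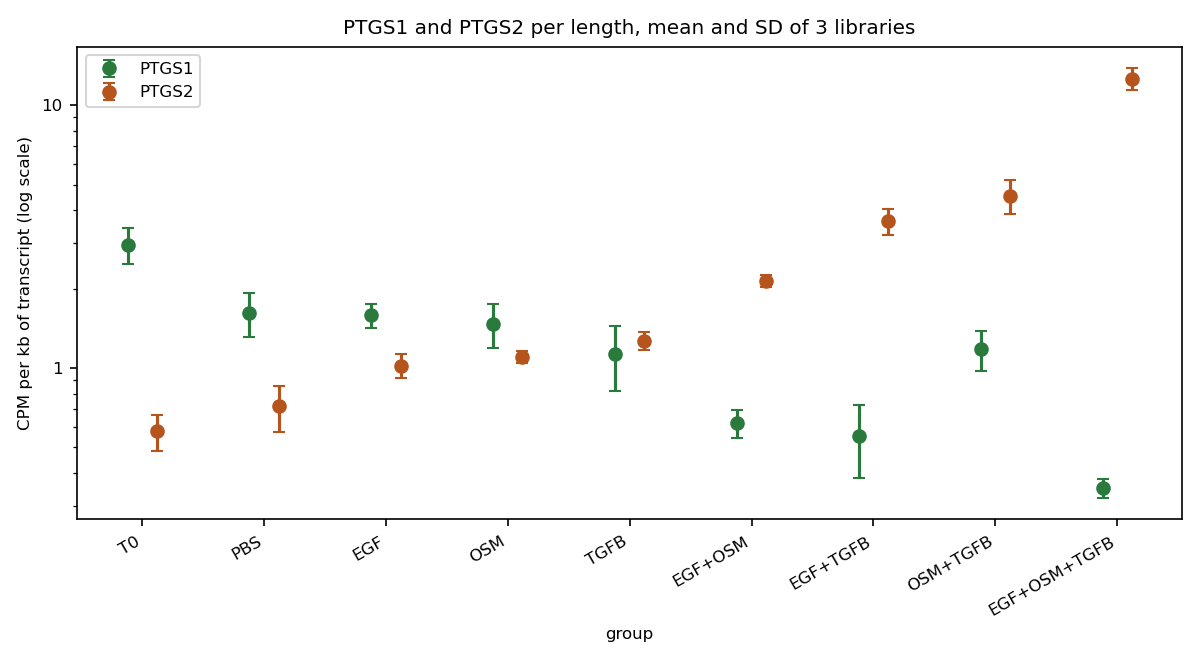
PTGS1 (green) and PTGS2 (orange) in CPM per kb of transcript on a log scale, by group; points are means and bars the SD of 3 libraries. PTGS1 lies above PTGS2 in T0, PBS, EGF and OSM, the 2 overlap with TGFB, and PTGS2 lies above in every combination.

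PTGES, the inducible synthase that makes prostaglandin E2 and acts after PTGS2, moved the opposite way from PTGS2. It lies on chromosome 9 (129738331 to 129753042, minus strand, 3 exons). PBS libraries held 357, 425 and 338 CPM, EGF libraries 270, 303 and 301 CPM, TGFB libraries 211, 246 and 203 CPM, and OSM libraries 146, 178 and 135 CPM. All treated libraries lay below all PBS libraries. OSM had the largest single effect, with a log2 fold change of -1.29 ± 0.12, against -0.76 ± 0.12 for TGFB and -0.36 ± 0.11 for EGF. The EGF call was lost without PBS replicate 2, the highest PBS library, at a log2 fold change of -0.25 (adjusted p = 0.0702 by edgeR). OSM+TGFB libraries held 69.7, 84.1 and 68.7 CPM and libraries with all 3 ligands 49.5, 57.2 and 56.0 CPM, log2 fold changes of -2.33 ± 0.12 and -2.78 ± 0.12. Each ligand lowered PTGES further whatever else was present, with 9 of 9 additions called lower: over PBS and the 3 other backgrounds the log2 changes ran from -1.29 to -1.57 for OSM, from -0.76 to -1.08 for TGFB and from -0.36 to -0.59 for EGF. The synthases PTGES2 and PTGES3, which did not share this pattern, are given with the wider list below.

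SLCO2A1, which carries prostaglandins into cells, had the widest rise. Its position is chromosome 3 (133932701 to 134052184, minus strand, 14 exons). PBS libraries held 4.20, 4.96 and 4.45 CPM. EGF lowered it from PBS to 0.823, 0.738 and 0.683 CPM, and OSM raised it to 16.4, 11.2 and 15.9 CPM, with no overlap on either side. T0 averaged 1.06 CPM, below PBS and above the EGF libraries. TGFB libraries, at 4.02, 3.51 and 2.51 CPM, were all below PBS but were not called (log2 fold change -0.44 ± 0.20, adjusted p = 0.0851 by edgeR), though they were with DESeq2 and without OSM replicate 2 or TGFB replicate 1 (adjusted p of 0.0289 to 0.0476). OSM+TGFB raised the gene to 116, 95.8 and 110 CPM, and all 3 ligands to 164, 156 and 154 CPM. These groups overlapped neither each other nor any other group. Against PBS the log2 fold changes were -2.60 ± 0.28 with EGF, 1.66 ± 0.17 with OSM, 1.96 ± 0.16 with EGF+OSM, 4.56 ± 0.16 (23.6-fold) with OSM+TGFB and 5.12 ± 0.16 (34.7-fold) with all 3. EGF+TGFB, at 6.57, 5.41 and 3.94 CPM, straddled PBS (0.24 ± 0.18, adjusted p = 0.243 by edgeR) and was called higher only without its replicate 3, at 0.41. The effect of EGF thus depended on what else was present: it lowered SLCO2A1 from PBS, added 0.68 ± 0.19 to TGFB, added 0.56 ± 0.13 to OSM+TGFB and was not called when added to OSM (0.29 ± 0.14, adjusted p = 0.0858 by edgeR). That last comparison was called without OSM replicate 1, EGF+OSM replicate 3 or EGF+TGFB replicate 3, at 0.32 to 0.39.

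HPGD, the dehydrogenase that inactivates prostaglandin E2, was lower with every ligand than in PBS. T0 averaged 14.4 CPM, so PBS itself lay above the level at 0 h, and the TGFB libraries overlapped T0. HPGD is on chromosome 4 (174490175 to 174523154, minus strand, 7 exons). PBS libraries held 39.4, 41.5 and 44.9 CPM. TGFB libraries held 15.1, 18.4 and 19.9 CPM, OSM libraries 5.18, 6.19 and 3.16 CPM, and EGF libraries 2.80, 3.55 and 4.10 CPM. No treated library overlapped PBS, and OSM and EGF overlapped each other. Log2 fold changes were -1.24 ± 0.18 with TGFB, -3.10 ± 0.20 with OSM and -3.59 ± 0.20 with EGF. In the pairs they were -3.94 ± 0.22 with OSM+TGFB, -4.87 ± 0.24 with EGF+OSM and -5.13 ± 0.25 with EGF+TGFB. With all 3 ligands the libraries held 0.416, 0.592 and 0.439 CPM, 14 to 17 counts each, a log2 fold change of -6.46 ± 0.36. All 9 additions of a ligand were called lower, from -0.83 ± 0.23 (TGFB added to OSM, whose libraries overlapped) to -3.89 ± 0.26 (EGF added to TGFB). The call for OSM added to EGF+TGFB was lost without EGF+OSM+TGFB replicate 1, at -1.22 (adjusted p = 0.0641 by edgeR).

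PTGER2 encodes the EP2 receptor for prostaglandin E2, and its highest group was TGFB alone. The gene is on chromosome 14 (52314305 to 52328598, plus strand, 2 exons). PBS libraries held 1.13, 1.01 and 1.05 CPM and TGFB libraries 3.11, 2.45 and 3.60 CPM, a log2 fold change of 1.52 ± 0.21. Neither EGF (-0.10 ± 0.22, adjusted p = 0.704 by edgeR) nor OSM (-0.17 ± 0.22, adjusted p = 0.526 by edgeR) was called, and both overlapped PBS. Their combination was the lowest group, at 0.487, 0.279 and 0.202 CPM, all below every other library, with a log2 fold change of -1.72 ± 0.26 on 8 to 18 counts a library. TGFB added to that pair gave 0.660, 0.523 and 0.658 CPM, still below PBS (-0.78 ± 0.24). Added to TGFB, EGF changed PTGER2 by -1.13 ± 0.21 and OSM by -1.21 ± 0.21 on the log2 scale, which left both pairs above PBS in every library but not called (adjusted p = 0.113 for EGF+TGFB and 0.223 for OSM+TGFB by edgeR).

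PTGER4 encodes the EP4 receptor, and it was highest with EGF and EGF+TGFB. Its position is chromosome 5 (40679915 to 40693735, plus strand, 3 exons). PBS libraries held 0.400, 0.280 and 0.318 CPM, 13 to 16 counts each. EGF libraries held 4.01, 4.01 and 3.51 CPM, against 0.911, 0.666 and 1.05 CPM with OSM and 1.07, 1.22 and 1.01 CPM with TGFB. Each single ligand lay clear of PBS, EGF by far the most. Log2 fold changes were 3.53 ± 0.24 with EGF, 1.39 ± 0.26 with OSM and 1.73 ± 0.25 with TGFB. EGF+TGFB held 5.66, 5.75 and 3.98 CPM (3.95 ± 0.24) and EGF+OSM 1.98, 1.68 and 2.07 CPM (2.51 ± 0.25). OSM+TGFB, without EGF, held 1.57, 1.67 and 2.15 CPM (2.43 ± 0.25), and all 3 ligands 1.79, 2.47 and 2.29 CPM (2.70 ± 0.25). These groups overlapped, and EGF added to OSM+TGFB was not called (0.27 ± 0.20, adjusted p = 0.258 by edgeR). OSM, which raised the gene from PBS, lowered it when added to EGF (log2 change -1.01 ± 0.19) and to EGF+TGFB (-1.25 ± 0.19), without overlap of libraries in either case. TGFB added to EGF gave 0.42 ± 0.18 with overlapping libraries and an adjusted p of 0.0485 by edgeR. That call was lost when any of the 3 EGF libraries, or replicate 1 or 2 of EGF+TGFB, was left out (log2 fold changes of 0.33 to 0.45), and when any of 13 libraries of other groups was left out, which left the value at 0.42. It was also lost with upper-quartile scaling, no filter on low counts, rows as deposited and DESeq2 (adjusted p of 0.0594 to 0.0693).

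If log2 fold changes added, a combination would lie at the sum of its single-ligand effects. The difference between the measured and the added value, the departure, was called for 6 of the 9 genes in EGF+OSM (38.7% of all genes tested), 6 in EGF+TGFB (29.8%), 4 in OSM+TGFB (23.3%) and 8 with all 3 ligands (48.0%). SLCO2A1 departed most: added effects would put it at 1.76 CPM with all 3 ligands, below PBS, and it was measured at 158 CPM, a departure of 6.49 ± 0.41. PTGS2 also lay above its sum, at 57.1 CPM against 12.8 CPM (2.16 ± 0.28). PTGER4 lay below, at 2.18 CPM against 33.2 CPM (-3.94 ± 0.50), as did PTGER2 at 0.614 CPM against 2.53 CPM (-2.03 ± 0.45), PTGS1 (-1.52 ± 0.41) and PLA2G4A (-0.92 ± 0.28). HPGD (1.47 ± 0.49) and PLA2G4F (2.14 ± 0.66) fell less than the sum of their single falls. Added effects would put them at 0.172 and 0.05 CPM, and 0.482 and 0.217 CPM were measured. These levels rest on 14 to 17 and 5 to 9 counts a library, so the size of both departures is imprecise. The HPGD call was lost without EGF+OSM+TGFB replicate 2 and the PLA2G4F call without replicate 1 or 3 of that group. PTGES was the gene with 0 called departures, at -0.07 ± 0.16, -0.23 ± 0.16, -0.28 ± 0.16 and -0.38 ± 0.23 in the 4 combinations (adjusted p = 0.79, 0.314, 0.24 and 0.189 by edgeR), which does not show that its effects were additive.

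**Figure D4:**
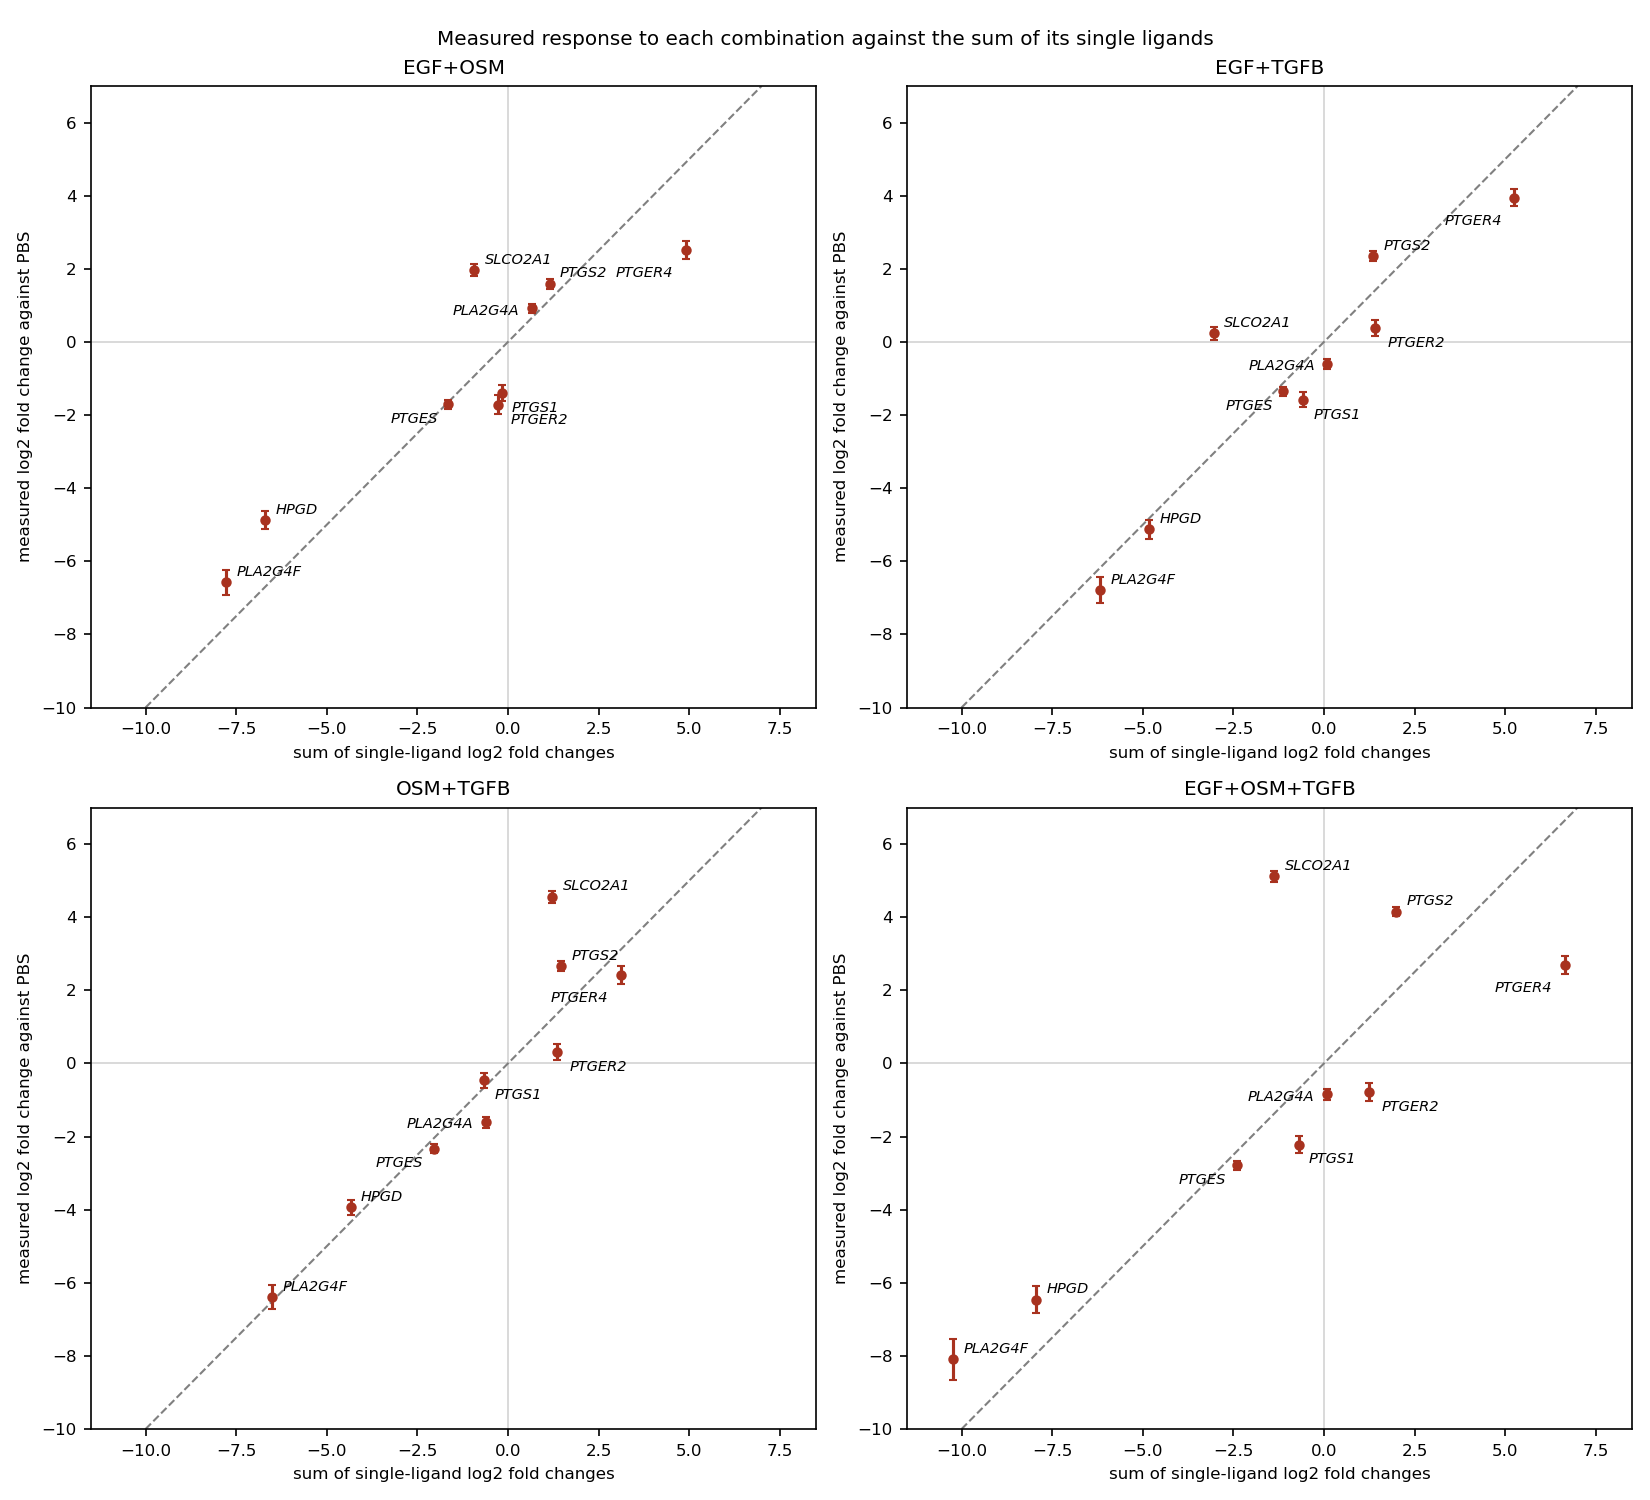
Measured log2 fold change of each gene against PBS (y) against the sum of its single-ligand log2 fold changes (x), in 4 panels, 1 for each combination; bars are the SE of the measured value and the dashed line marks equality. SLCO2A1 lies above the line in every panel, and PTGER4 lies below it in every panel. In OSM+TGFB the PTGER4 departure was not called (-0.69 ± 0.33, adjusted p = 0.141 by edgeR).

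Of the changes between T0 and PBS, which separate 24 h without ligand, 4 of the 9 genes were called, against 35.1% of all genes. HPGD went from 13.5, 17.7 and 11.96 CPM at T0 to its PBS level (1.54 ± 0.18), PLA2G4F from 17.4, 19.9 and 13.2 CPM (1.84 ± 0.19) and SLCO2A1 from 1.00, 1.23 and 0.956 CPM (2.09 ± 0.24). All 3 rose, and PTGS1 fell, from 13.4, 13.5 and 17.5 CPM (-0.86 ± 0.19). None of these 4 overlapped between T0 and PBS. PTGS2 did overlap (0.30 ± 0.15, adjusted p = 0.128 by edgeR) and was called without PBS replicate 2, at 0.43 (adjusted p = 0.0457 by edgeR). PTGES, PTGER2, PTGER4 and PLA2G4A were not called.

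Ranked by level, PTGS2 ran from T0 and PBS, which overlapped, through EGF, OSM and TGFB, whose neighbours overlapped, to EGF+OSM, EGF+TGFB, OSM+TGFB and all 3, which were each distinct from the next. PTGES was lowest with all 3 ligands, then OSM+TGFB and EGF+OSM, then EGF+TGFB and OSM, which overlapped, then TGFB and EGF, with T0 and PBS overlapping at the top. PTGER4 formed steps: PBS with T0, then OSM with TGFB, then OSM+TGFB, EGF+OSM and all 3, then EGF with EGF+TGFB, each step clear of the next. SLCO2A1 overlapped only between PBS and EGF+TGFB and between OSM and EGF+OSM among neighbouring groups. The spread from lowest to highest group mean was 276-fold for PLA2G4F, 211-fold for SLCO2A1 and 87.0-fold for HPGD, and 5.74-fold for PLA2G4A, the narrowest. Over the 9 group means of log2 level, which come from the same libraries, HPGD and PLA2G4F had the closest pattern among the 9 genes (Pearson's r = 0.972), and PTGS2 and PTGES the most opposed (r = -0.932).

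Among all genes at 5 CPM or more in some group, those most like each of the 9 over the 9 group means were, in order of Pearson's r, DMTF1, QSOX1 and C8orf58 for PTGS2 (0.988, 0.986 and 0.981) and TTN, NAV1 and R3HCC1L for SLCO2A1 (0.982, 0.957 and 0.956). For HPGD they were C22orf39, TWIST1 and ABCA12 (0.992, 0.991 and 0.989), and for PLA2G4F ELL3, OAS1 and OFD1 (0.992, 0.991 and 0.990). PTGES was most like PRR14, ATP6V0E2 and S100A14 (0.986, 0.974 and 0.971), and PTGS1 like CRYBG1, KBTBD4 and PHKA2 (0.951, 0.948 and 0.943). The receptors were closest to CTXN1, CSGALNACT1 and EPHA4 for PTGER2 (0.980, 0.950 and 0.947) and to TTL, ENC1 and FAM3C for PTGER4 (0.989, 0.979 and 0.977). PLA2G4A was closest to RITA1, MRPS34 and SLC25A40 (0.995, 0.986 and 0.984). With 9 points and so many genes to choose from, these values are a description only.

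A wider list of 29 further prostanoid genes, made up of other phospholipases, synthases, an exporter, reductases and receptors, had 19 members that passed the filter. Against PBS, 4 of the 19 were called higher and 9 lower with EGF, where 34.9% and 38.6% of all genes tested were. The counts were 4 and 7 with OSM (33.5% and 29.8% of all genes), and 3 and 6 with TGFB (19.9% and 15.8%). They were 5 higher and 11 lower with EGF+OSM (37.6% and 39.6%) and again with EGF+TGFB (36.2% and 37.5%), 4 and 9 with OSM+TGFB (34.2% and 31.8%), and 4 and 13 with all 3 ligands (37.7% and 36.7%). The median log2 fold change of the 19 was -0.64 with EGF, -0.15 with OSM, -0.12 with TGFB and -0.93 with all 3 ligands, where that of all genes tested was -0.07, 0.00, -0.01 and 0.00. PLA2G2A, a secreted phospholipase, averaged 2.40 ± 0.271 CPM in PBS and 11.6 ± 5.23 CPM with OSM, but 0.0651 ± 0.0156 CPM with EGF and 0.310 ± 0.0711 CPM with TGFB (SD, n = 3). PLA2G4D, of the same cytosolic family as PLA2G4F, was lower in 7 of 7 comparisons, from 9.62 ± 2.64 CPM in PBS to 0.278 ± 0.0563 CPM with EGF+TGFB. PLA2G4E, also of that family, averaged 4.83 ± 1.40 CPM in PBS and 39.4 ± 9.45 CPM with OSM. It was called higher with OSM, EGF+OSM and OSM+TGFB, lower with TGFB and EGF+TGFB, and not with EGF or all 3 ligands. AKR1C3, which makes a prostaglandin of the F series, averaged 200 ± 22.0 CPM in PBS, 38.3 ± 3.56 CPM with EGF and 250 ± 24.6 CPM with TGFB, the last called higher. Of the other prostaglandin E2 synthases, PTGES3 averaged 192 ± 5.60 CPM in PBS and 315 ± 19.7 CPM with all 3 ligands. It was called higher with every treatment but TGFB, where it was not called. PTGES2 was called higher with EGF and EGF+OSM, and lower with TGFB, OSM+TGFB and all 3 ligands. PLA2G4B went from 9.003 ± 3.26 CPM in PBS to 0.487 ± 0.0834 CPM with OSM+TGFB, but it overlaps a readthrough gene, so its counts are uncertain. Receptors other than PTGER2, PTGER4 and PTGFR did not pass the filter: PTGER1, PTGER3, PTGDR, PTGDR2, PTGIR and TBXA2R had at most 8 counts in any library.

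**Figure D5:**
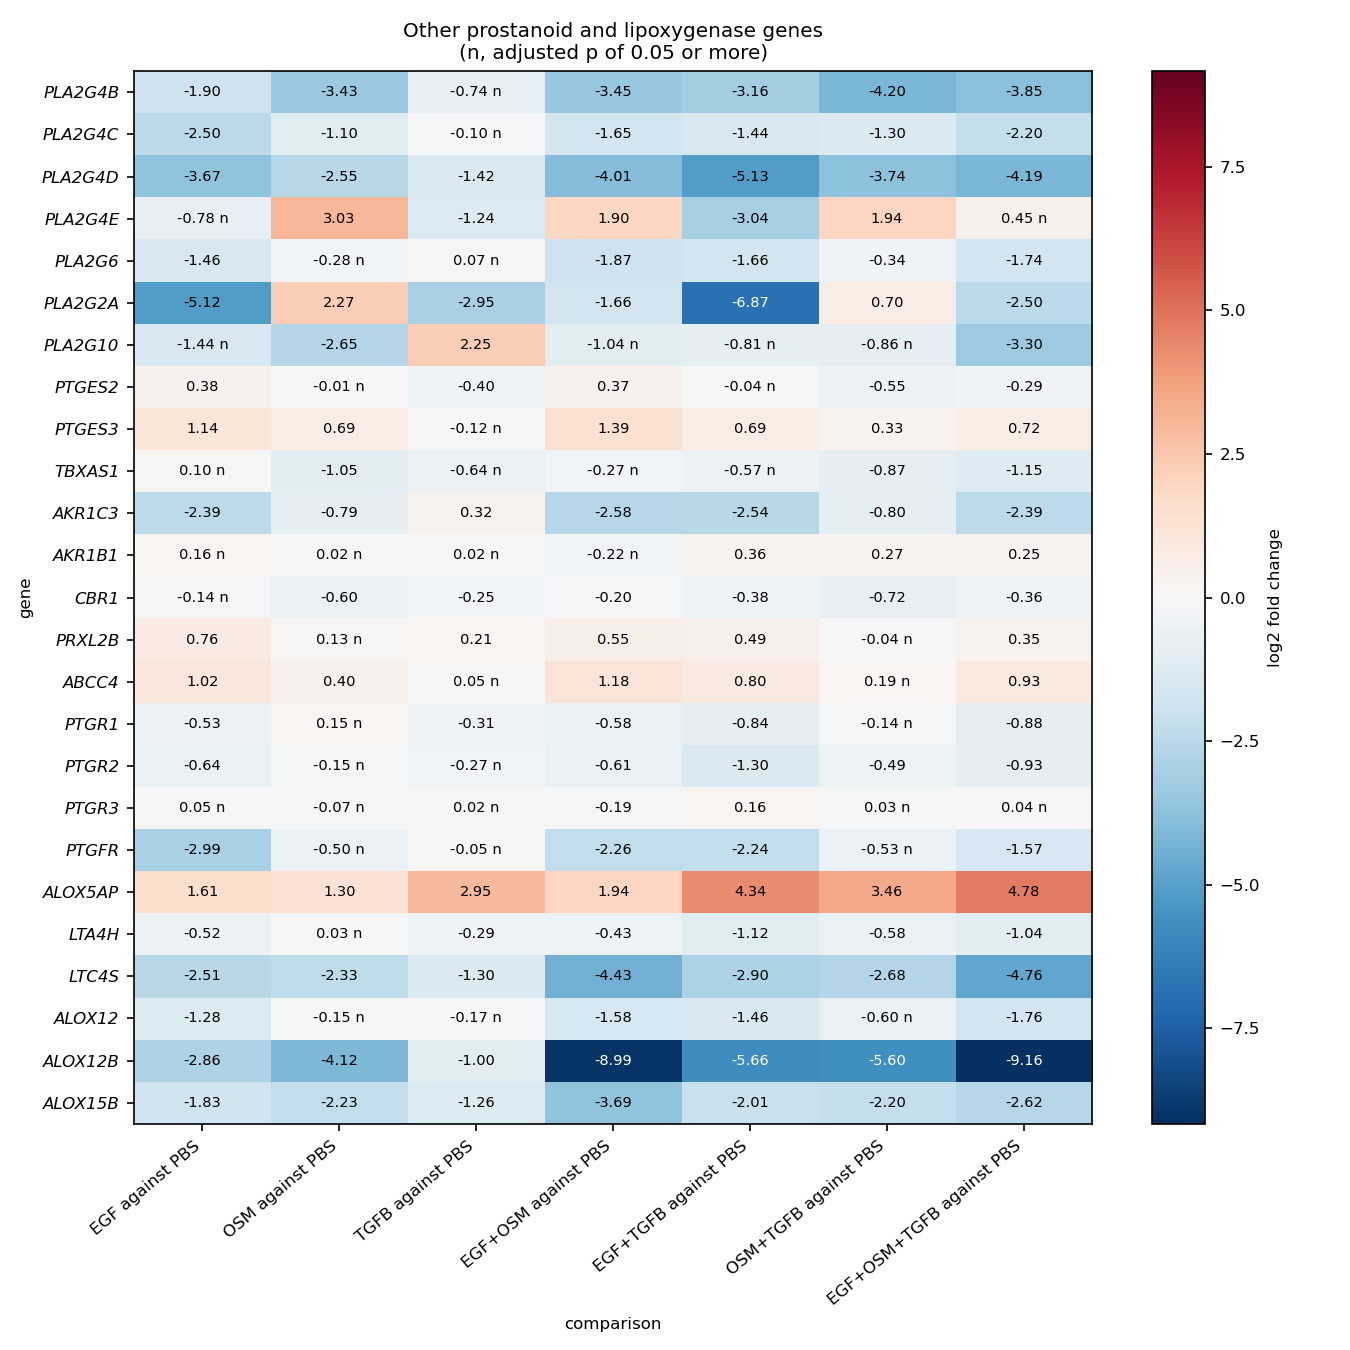
Fitted log2 fold changes against PBS of the 19 further prostanoid genes that passed the filter and of 6 genes of the lipoxygenase branch, with n marking an adjusted p of 0.05 or more. ALOX5AP is red throughout and PLA2G4D, LTC4S, ALOX12B and ALOX15B are blue throughout; the values of PLA2G10 with OSM and with all 3 ligands, PLA2G2A with EGF+TGFB and ALOX12B with all 3 ligands rest on 3 or fewer counts in the group, and their size depends on the prior count.

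The lipoxygenases use the same arachidonic acid, and 6 of the 8 genes listed passed the filter. ALOX5AP, which presents arachidonic acid to 5-lipoxygenase, was called higher in 7 of 7 comparisons, from 0.710 ± 0.149 CPM in PBS to 5.51 ± 0.745 with TGFB, 14.4 ± 1.70 with EGF+TGFB and 19.5 ± 1.02 CPM with all 3 ligands. ALOX5, the lipoxygenase it serves, had 0 counts in every library, which does not show that it is absent. The epidermal lipoxygenase ALOX12B fell from 18.6 ± 6.84 CPM in PBS to 1.05 ± 0.372 with OSM and to libraries of 0.0734, 0 and 0 CPM with all 3 ligands. LTC4S (2.21 ± 0.362 CPM in PBS, 0.386 ± 0.157 with EGF) and ALOX15B (197 ± 18.7 and 55.2 ± 2.87 CPM) were also lower in 7 of 7. Of 8 genes known to be raised by cyclic AMP, the signal of both receptors described here, 2 were called higher and 5 lower with EGF (34.9% and 38.6% of all genes), 2 and 4 with OSM (33.5% and 29.8%), and 2 and 2 with TGFB (19.9% and 15.8%). The combinations gave 2 higher and 6 lower with EGF+OSM (37.6% and 39.6% of all genes), and 3 higher and 4 lower with EGF+TGFB (36.2% and 37.5%), with OSM+TGFB (34.2% and 31.8%) and with all 3 ligands (37.7% and 36.7%). PDE4D, a phosphodiesterase that breaks down cyclic AMP, was higher in 7 of 7, at 21.0 ± 0.708 CPM in PBS and 73.4 ± 4.02 CPM with all 3 ligands. PER1, NR4A2 and PDE4B were lower with all 3 ligands, NR4A2 going from 6.94 ± 1.60 to 0.751 ± 0.150 CPM, PDE4B from 2.84 ± 0.358 to 0.382 ± 0.0305 CPM and PER1 from 144 ± 3.30 to 53.8 ± 0.812 CPM.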

How the data were processed

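Polyadenylated RNA of 27 MCF10A libraries (9 groups of 3, taken from the sample labels) was analysed from the table the authors deposited. Its values are estimated counts per gene, deposited as whole numbers; per the submitters' processing notes FastQC 0.11.5, Trim Galore 0.4.3, cutadapt 1.10, kallisto 0.46.2 and R 3.5.0 were used, on GRCh38.p5, with no role or order given, so how transcripts were summed to genes is not known. Rows sharing a symbol (1962 symbols) were added together. The 7165 rows without a symbol, 0.324% of counts, were kept as separate genes in library sizes, in the filter and, where they passed, in the tests. Look-alikes were taken only from genes with a symbol. Gene positions, exon numbers and transcript lengths are those of GENCODE release 44, and the annotation the authors used is not given in the sources used here.

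Tests used edgeR 4.0.16 in R 4.3.3: filterByExpr by group, TMM scaling (factors 0.867 to 1.12), a robust quasi-likelihood fit of group means over all 27 libraries (18 residual degrees of freedom), and Benjamini-Hochberg adjustment over the 15575 genes tested. Comparisons were 7 treatments against PBS, PBS against T0, 9 additions of a ligand to others and 4 departures from additivity. CPM are TMM-scaled. The common biological coefficient of variation was 7.83%. Replicates differed by more than sampling noise (chi-square per degree of freedom 6.57 to 32), so none was merged. Standard errors come from the fit, and the script was tested on simulated data.

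The 9 genes, the further lists and the tests were chosen with earlier results of these data known. Named in each further list are the 4 genes called in the most comparisons against PBS, then by size of change. PLA2G4E, PTGES2 and PTGES3 are named besides, as relatives of the 9 genes. Look-alikes are the 3 highest correlations per gene. Alternatives were upper-quartile scaling, no filter, rows as deposited, the replicate number as a block, DESeq2 1.42.0, an added 2-fold limit and leaving out each library. Proteins were not analysed here, and a check gene for TGFB is not reported here.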

Additional observations from a re-analysis of the deposited data

Results flagged for a closer look

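Each result here compares the effect of a ligand with and without another, as the log2 departure of a pair from the sum of its single-ligand effects, and was picked out because that difference between conditions was past the 0.05 threshold on the adjusted p of edgeR's quasi-likelihood fit. All use the same PBS libraries, and the genes were chosen with the responses known, so the values are a description.

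SLCO2A1 lay above the sum in each pair, by 2.89 ± 0.31 (SE) in EGF+OSM, 3.27 ± 0.34 in EGF+TGFB and 3.33 ± 0.24 in OSM+TGFB. On the CPM scale that was 17.7 measured against 2.38 added, 5.31 against 0.554 and 107 against 10.6. PTGS2 lay above by 0.99 ± 0.19 in EGF+TGFB and 1.20 ± 0.19 in OSM+TGFB. In EGF+OSM its departure of 0.44 ± 0.19 was not called (adjusted p = 0.0726 by edgeR), but it was with upper-quartile scaling and without PBS replicate 2 or EGF+TGFB replicate 3, at 0.48 to 0.57.

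PTGER4 lay below the sum by -2.40 ± 0.32 in EGF+OSM, where 1.91 CPM was measured against 10.0 added, and by -1.31 ± 0.31 in EGF+TGFB. PTGER2 lay below in each pair, by -1.46 ± 0.34 in EGF+OSM, -1.04 ± 0.30 in EGF+TGFB and -1.04 ± 0.31 in OSM+TGFB, the last not called with no filter on low counts (adjusted p = 0.0504 by edgeR). PTGS1 lay below by -1.22 ± 0.28 in EGF+OSM and -1.02 ± 0.29 in EGF+TGFB. Neither EGF nor OSM alone was called for PTGS1 or PTGER2, so for EGF+OSM the departure is nearly the whole response.

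PLA2G4A lay below by -0.70 ± 0.20 in EGF+TGFB and -0.99 ± 0.21 in OSM+TGFB. HPGD fell less in EGF+OSM than the sum of its single falls, by 1.82 ± 0.32, and PLA2G4F by 1.20 ± 0.41. That was 1.43 CPM measured against 0.405 added for HPGD and 0.623 against 0.274 for PLA2G4F, so both rest on low counts. The PLA2G4F call was lost without EGF replicate 3, OSM replicate 1 or 3, or EGF+OSM replicate 2 or 3, at values of 0.99 to 1.17, and with no filter on low counts, at 1.22 (adjusted p = 0.063 by edgeR).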

How the results depend on the processing

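The 189 values of the 9 genes were recomputed 6048 times under upper-quartile scaling, no filter on low counts, rows as deposited, DESeq2, a replicate block and leaving out each library: 5952 kept their direction and side of the threshold, 52 lost a call, 26 gained one and 18 changed sign, 0 of these among values called at first. The sign changes touched 9 values near 0. Leaving out single libraries, these ranged from -0.15 to 0.12 for PTGS1 and from -0.26 to 0.0382 for PTGER2 with EGF, from -0.26 to 0.0155 for PTGS1 and from -0.20 to 0.0822 for PLA2G4A with OSM, and from -0.0133 to 0.16 for PTGES between T0 and PBS. The ranges were -0.11 to 0.0914 for PLA2G4A with EGF added to TGFB (0.0282 with no filter), -0.0606 to 0.32 for PTGS1 with OSM added to TGFB, -0.17 to 0.0548 for the departure of PTGES in EGF+OSM and -0.0865 to 0.40 for that of PLA2G4F in OSM+TGFB. The cause was not tested.

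An added limit of 2-fold, which by construction removes small changes, lowered the number of the 9 genes called from 7 to 4 with EGF, from 8 to 4 with TGFB, and from 8 to 5 for EGF added to OSM and to OSM+TGFB. Among the 19 further prostanoid genes it lowered the number called from 11 to 7 with OSM, 9 to 4 with TGFB, 16 to 10 with EGF+OSM, 16 to 9 with EGF+TGFB, 13 to 4 with OSM+TGFB and 17 to 9 with all 3 ligands.

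The labels do not say what libraries of the same number share, so the main fit did not pair samples by number. With group means removed, same-numbered libraries correlated over 0.1 in 73 of 108 pairs. Their median correlation was 0.133. Removing group means makes a library's correlations with the libraries of another group nearly cancel. The median of -0.062 for differently numbered pairs follows from that and is not a separate comparison. Each of the 27 libraries correlated best with its own number, a hint of pairing from the data and not the design. With the replicate block, 9 of the 9 genes were called with TGFB in place of 8, the further call being SLCO2A1 (-0.45, adjusted p = 0.048 by edgeR). The block also gained PTGS1 for OSM added to EGF+TGFB (adjusted p = 0.00805 by edgeR) and TGFB added to OSM (0.0475), SLCO2A1 for EGF added to OSM (0.0437) and PLA2G4A for OSM added to EGF (0.0372); it lost no call of the 9 genes, and no count moved by more than 1.5 times. Depth limits PTGER2, PTGER4 and, in combinations, HPGD and PLA2G4F.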
